A study of Homo sapiens with 8 samples.

Results

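Binding of the chromatin remodeller CHD4 was examined at the genes of 4 receptor tyrosine kinases, EGFR, EPHA2, MET and ERBB2, in cells with and without DOC1. The loci were taken as the hg19 span of each gene plus 50 kb on either side, and every CHD4 peak that overlapped such a window was counted. They held 87 of the 36876 peaks of the series. When overlapping peaks of different libraries were merged, these became 34 of 18808 regions. EPHA2 accounted for 17 regions, EGFR for 8, ERBB2 for 5 and MET for 4. The 4 genes were selected on the presence and fold of CHD4 peaks in these same lists, so presence and height at these loci are given as a description, with no test.

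The cells were SCC9, an established squamous carcinoma line of the tongue. The group labelled lacZ lacked DOC1 and the group labelled DOC1 had it; how DOC1 was supplied is not given in the sources used here. Each group had 3 libraries of DNA bound by CHD4 (chromatin immunoprecipitation and sequencing, single 50 bp reads), and 1 library with control IgG that was not analysed here. All cells grew in the same medium with serum and hydrocortisone, and no label states whether the numbered libraries are separate cultures, so the spread between them may be technical.

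Receptor tyrosine kinases sit in the cell membrane, bind a ligand outside the cell and phosphorylate tyrosines inside it, which switches on growth and motility pathways. EGFR responds to epidermal growth factor and its relatives, and ERBB2 has no known ligand of its own and pairs with EGFR and other family members. MET is the receptor for hepatocyte growth factor, a scatter factor for epithelial cells. EPHA2 binds ephrin-A ligands on neighbouring cells. EGFR is commonly abundant in squamous carcinomas of the mouth. CHD4 is the ATP-driven motor of NuRD, a complex that shifts nucleosomes and removes acetyl groups from histones, and DOC1 (CDK2AP1) is one of its smaller members.

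The promoter of EPHA2 was the only one of the 4 whose annotated start lay under a peak, in the single library DOC1 3, so its sequence is shown. The peak ran from 329 bp upstream to 57 bp downstream of the start. RefSeq's promoter table (GRCh38.p14, chr1:16156070-16156319, minus strand) gives the following 250 bases before the start, read 5′ to 3′. The capitals mark a GC box and, closer to the start, a cyclic AMP response element.
EPHA2 promoter: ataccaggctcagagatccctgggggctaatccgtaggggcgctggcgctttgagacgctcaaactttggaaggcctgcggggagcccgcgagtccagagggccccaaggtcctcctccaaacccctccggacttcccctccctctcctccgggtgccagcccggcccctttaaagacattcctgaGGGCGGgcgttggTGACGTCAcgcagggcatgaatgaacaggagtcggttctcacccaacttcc
The gene is 18 bp longer in the hg19 span used here than in that table, so the starts may differ by that much, and the peak covers the printed bases in either case. The cyclic AMP response element, TGACGTCA, lay 51 to 44 bases before the start. It was searched on both strands, which read alike for this motif, and was found in 1.65% of the 35116 promoters of the table. The GC box, GGGCGG or CCGCCC on the other strand, lay 64 to 59 bases before the start and was found in 42.6% of promoters. No AP-1 element (TGACTCA or TGAGTCA) and no E-box (CACCTG or CAGGTG) stood in these 250 bases. The AP-1 letters were found in 4.20% and the E-box letters in 17.5% of all promoters. Guanine and cytosine made up 63.2% of the EPHA2 promoter, 68.4% of that of MET, 65.6% of that of ERBB2 and 73.6% of that of EGFR at its outermost start. A second start of EGFR in the table had 38.8%. The median promoter of the table had 58.0%.

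The lists differed in length and depth. They held 2812 to 11032 peaks, and their median summits held 15 reads in 2 DOC1 libraries and up to 38 reads in lacZ 1, as worked out from the peak statistics. Absence here means only that the peak caller listed no peak. DOC1 2 stood apart from the other libraries: 678 regions of the series (3.6%) were found in every library but this one. It held 4 of the 87 peaks at the receptor loci, and DOC1 3, with the longest list, held 23. Heights are the authors' fold enrichment over the local background at the summit, and each belongs to its own list, so its percentile within that list is given beside it.

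EPHA2 was the only locus of the 4 with CHD4 regions common to all libraries. Its window of 132 kb on chromosome 1 (16400832 to 16532582) held 12.9 regions per 100 kb, against 2.77 at EGFR, 1.77 at MET and 3.56 at ERBB2. When the genome was divided into windows of the EPHA2 length, 14 of 23136 (0.0605%) held 17 regions or more, and the median window held none. For EGFR, MET and ERBB2 the share of windows of their own length with as many regions was 5.42%, 12.3% and 4.63%. The receptor genes were named partly for their peaks, so these shares only place the loci in the genome. Of the 17 regions at EPHA2, 6 lay in the gene, 8 upstream and 3 downstream.

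**Figure D1:**
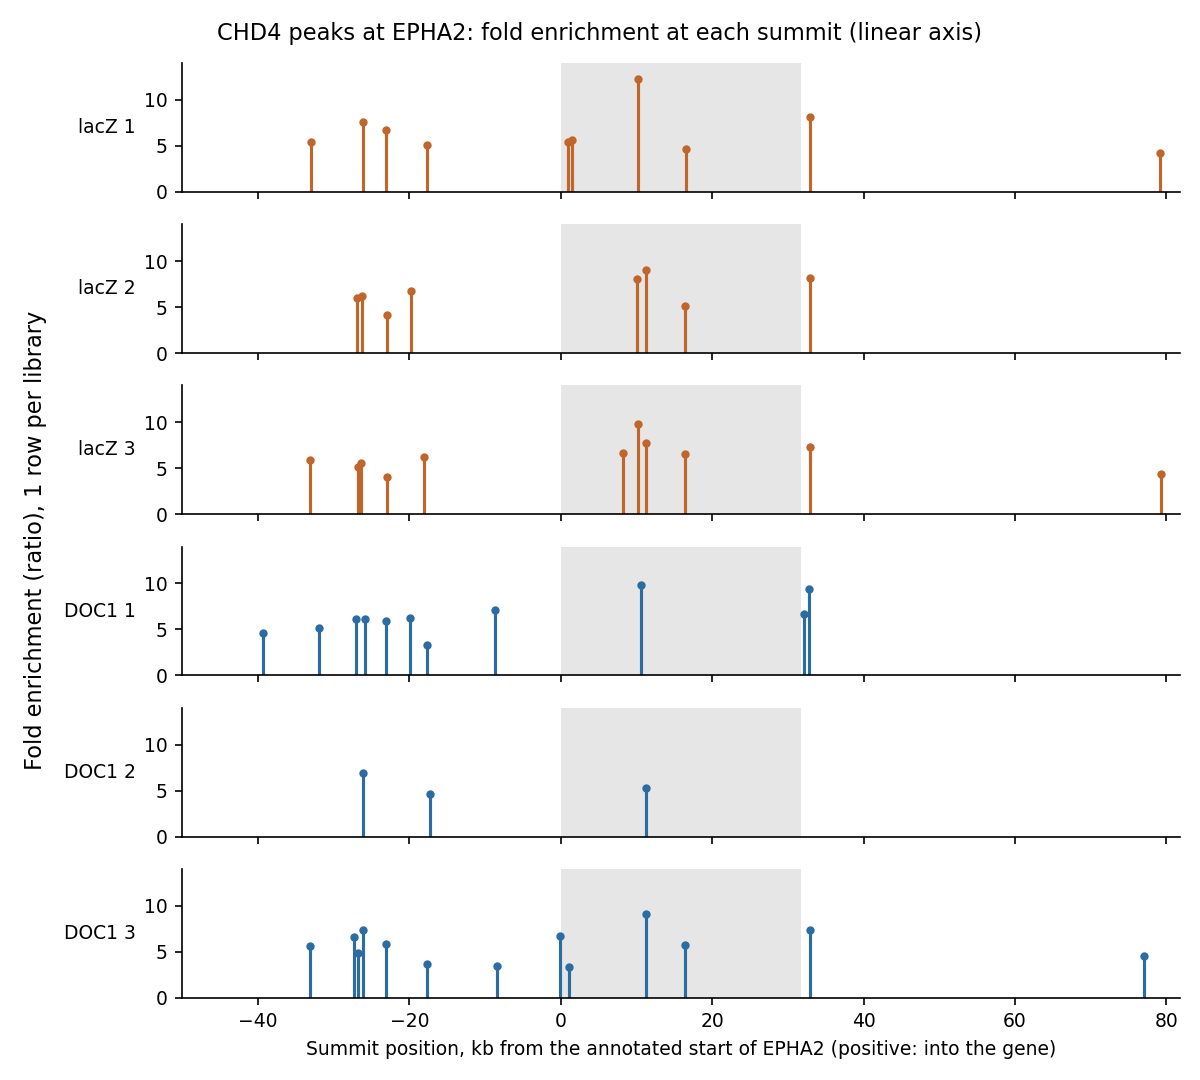
Position and height of each CHD4 peak at EPHA2. Each row is 1 library (lacZ in orange, DOC1 in blue), the x axis is the distance of the summit from the annotated start in kb, positive into the gene, and the y axis is the fold enrichment as deposited (ratio, linear). Grey marks the gene. Summits between 10 and 12 kb are present in all 6 libraries, and lacZ 1 has the highest, at 12.3.

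The dense part of the locus ran from 16465829 to 16522087, 56.3 kb from inside EPHA2 to well upstream of it. Within it no gap between neighbouring regions exceeded 10 kb, a distance chosen with the peaks in view. This run held 14 regions. In the whole genome 280 runs had 5 regions or more at that distance, and 5 runs had 14 or more, this one included. With gaps of up to 20 kb the run grew to 18 regions over 85.0 kb, and with gaps of up to 5 kb it broke up into shorter runs, of which one upstream held 6 regions. Peaks covered 11.8% of the 56.3 kb in lacZ 1, 5.78% in lacZ 2, 5.81% in lacZ 3, 7.26% in DOC1 1, 1.84% in DOC1 2 and 11.95% in DOC1 3. lacZ 1 and DOC1 3 were thus nearly alike, and DOC1 2 was the lowest of all. Of the 14 regions, 5 were found in 4 or more libraries and 5 in 1 library alone. In RefSeq's gene order (GRCh38) the next protein-coding gene on the upstream side of EPHA2 is ARHGEF19.

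The strongest CHD4 region of the EPHA2 locus lay inside the gene, 9.5 to 11.5 kb past the start (chromosome 1, 16471082 to 16473040). All 6 libraries had a peak there. The highest fold was 12.3 in lacZ 1, 8.98 in lacZ 2 and 9.86 in lacZ 3, and 9.83 in DOC1 1, 5.29 in DOC1 2 and 9.06 in DOC1 3. The ranges overlapped, since DOC1 1 and DOC1 3 lay above lacZ 2. By rank within their own lists these peaks stood at the 97.9th, 87.8th and 91.6th percentile in lacZ libraries 1 to 3 and at the 96.8th, 53.1st and 97.3rd in DOC1 libraries 1 to 3. Only in DOC1 2 did the region rank near the middle of its list. The summits there held 60, 29 and 25 reads in lacZ libraries 1 to 3 and 27, 15 and 52 reads in DOC1 libraries 1 to 3.

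This region was long, at 1959 bp, and its summits fell into separate places. A cluster of 4 summits, from lacZ 2, lacZ 3, DOC1 2 and DOC1 3, lay within 22 bp of one another (16471336 to 16471358). A second cluster 1077 bp nearer the gene start held 3 summits within 74 bp (16472392 to 16472466), all from lacZ libraries. lacZ 2 and lacZ 3 had a separate peak at each place, and lacZ 1 had 1 peak of 1787 bp across both, with its summit in the second. Among the DOC1 libraries, the peak of DOC1 3 spanned both places with its summit in the first, and that of DOC1 1 spanned both with its summit between them, at 16472024. The peak of DOC1 2 was confined to the first. A summit marks only the highest point of a peak, so both wide DOC1 peaks still cover the second place. The strongest summits of the 6 libraries were spread over 1091 bp, while the median spread was 155.5 bp over the 1402 regions of the series found in 5 or 6 libraries. Only 2.00% of those regions were as long.

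The second region found in all 6 libraries lay 25.6 to 27.4 kb upstream of EPHA2 (16508185 to 16510020). It was built from 11 peaks over 1836 bp. The highest fold was 7.63, 6.15 and 5.54 in lacZ libraries 1 to 3, at the 83.9th, 49.2nd and 32.1st percentile of their lists. In DOC1 1, DOC1 2 and DOC1 3 it was 6.09, 6.97 and 7.33, at the 55.5th, 91.9th and 90.4th percentile. The groups overlapped in both measures, and DOC1 2 ranked this region well above the one in the gene. Its peak there held 16 reads at the summit. In lists of equal length, each cut to its 2812 peaks with the lowest p-values, the region in the gene was still found in all 6 libraries. The upstream region was then found in lacZ 1, lacZ 2, DOC1 2 and DOC1 3 only. With summits widened by 100 bp in place of whole peaks the reverse held. The upstream region was still found in all 6 libraries and the region in the gene was not. Of all regions of the series 2.75% were found in every library, against these 2 of the 34 at the receptor loci. Without DOC1 2, 5 regions of the receptor loci were found in all remaining libraries. In the series 3.6% of regions were found in every library but DOC1 2, beside the 2.75% found in all 6.

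A further 4 regions of the EPHA2 locus were found in 4 or 5 libraries. Just past the 3′ end of the gene, 0.361 kb beyond it, a region (16449288 to 16450471) had folds of 8.10, 8.14 and 7.33 in lacZ libraries 1 to 3 and of 9.44 and 7.34 in DOC1 1 and DOC1 3. These peaks lay between the 71.9th and 96.2nd percentile of their lists, and DOC1 2 had none. The same 5 libraries kept it in lists of equal length. The background behind the fold was 3.00 reads in each of the lacZ lists at this place, and 1.54 and 3.12 reads in DOC1 1 and DOC1 3. Backgrounds here and below are after the scaling of each library, which is not the same in all lists, so they are not compared. In the gene, 16.4 kb past the start (16465829 to 16466522), the folds were 4.65, 5.12 and 6.53 in lacZ libraries 1 to 3 and 5.73 in DOC1 3. DOC1 1 and DOC1 2 had no peak there, and DOC1 3 ranked it at its 67.7th percentile, above each lacZ list. In lists of equal length only lacZ 3 and lacZ 2, whose own list was not cut, kept this region.

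Upstream, 23.0 kb before the start (16505330 to 16505879), every library but DOC1 2 had a peak, and the strongest summits lay within 63 bp of each other. The folds were 6.76, 4.09 and 4.08 in lacZ libraries 1 to 3 and 5.86 in both DOC1 1 and DOC1 3. By rank they stood at the 73.5th, 6.19th and 6.12th percentile of the lacZ lists and at the 51.2nd and 70.7th of DOC1 1 and DOC1 3. In lists of equal length only lacZ 1 and lacZ 2, whose own list was not cut, kept this region. The background, on the scale of each list, was 4.00 reads in each lacZ list, also in lacZ 1 with its high rank. It was 1.39 and 2.34 reads in DOC1 1 and DOC1 3. At 17.6 kb upstream (16499511 to 16500763) the lacking library was lacZ 2, and folds were 5.12 and 6.22 in lacZ 1 and lacZ 3 and 3.32, 4.64 and 3.68 in DOC1 libraries 1 to 3. Both lacZ folds were thus above the 3 of the DOC1 libraries, an order whose share among all regions was not worked out. The strongest summits were spread over 764 bp. The peak of lacZ 3 (16500538 to 16500763) did not overlap those of DOC1 1 and DOC1 2. The background, again on the scale of each list, was 3.00 and 1.24 reads in lacZ 1 and lacZ 3. It was 3.52, 1.80 and 6.00 reads in DOC1 libraries 1 to 3. All 5 peaks lay in the lower part of their lists, at or under the 48.9th percentile, and none was kept in lists of equal length.

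Around the start of EPHA2 the peaks were few and scattered. The peak over the start (16482525 to 16482911) was found in DOC1 3 alone, with a fold of 6.71 (85.2nd percentile), 34 reads at its summit and the summit 170 bp upstream. A region 0.8 to 1.1 kb into the gene (16481493 to 16481830) was found in lacZ 1 with a fold of 5.41 and in DOC1 3 with a fold of 3.35. Neither was found in a second library of the same group. The other 9 regions at EPHA2 were found in 1 to 3 libraries each, with folds from 4.17 to 7.06, except a peak of DOC1 3 at 3.46.

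**Figure D2:**
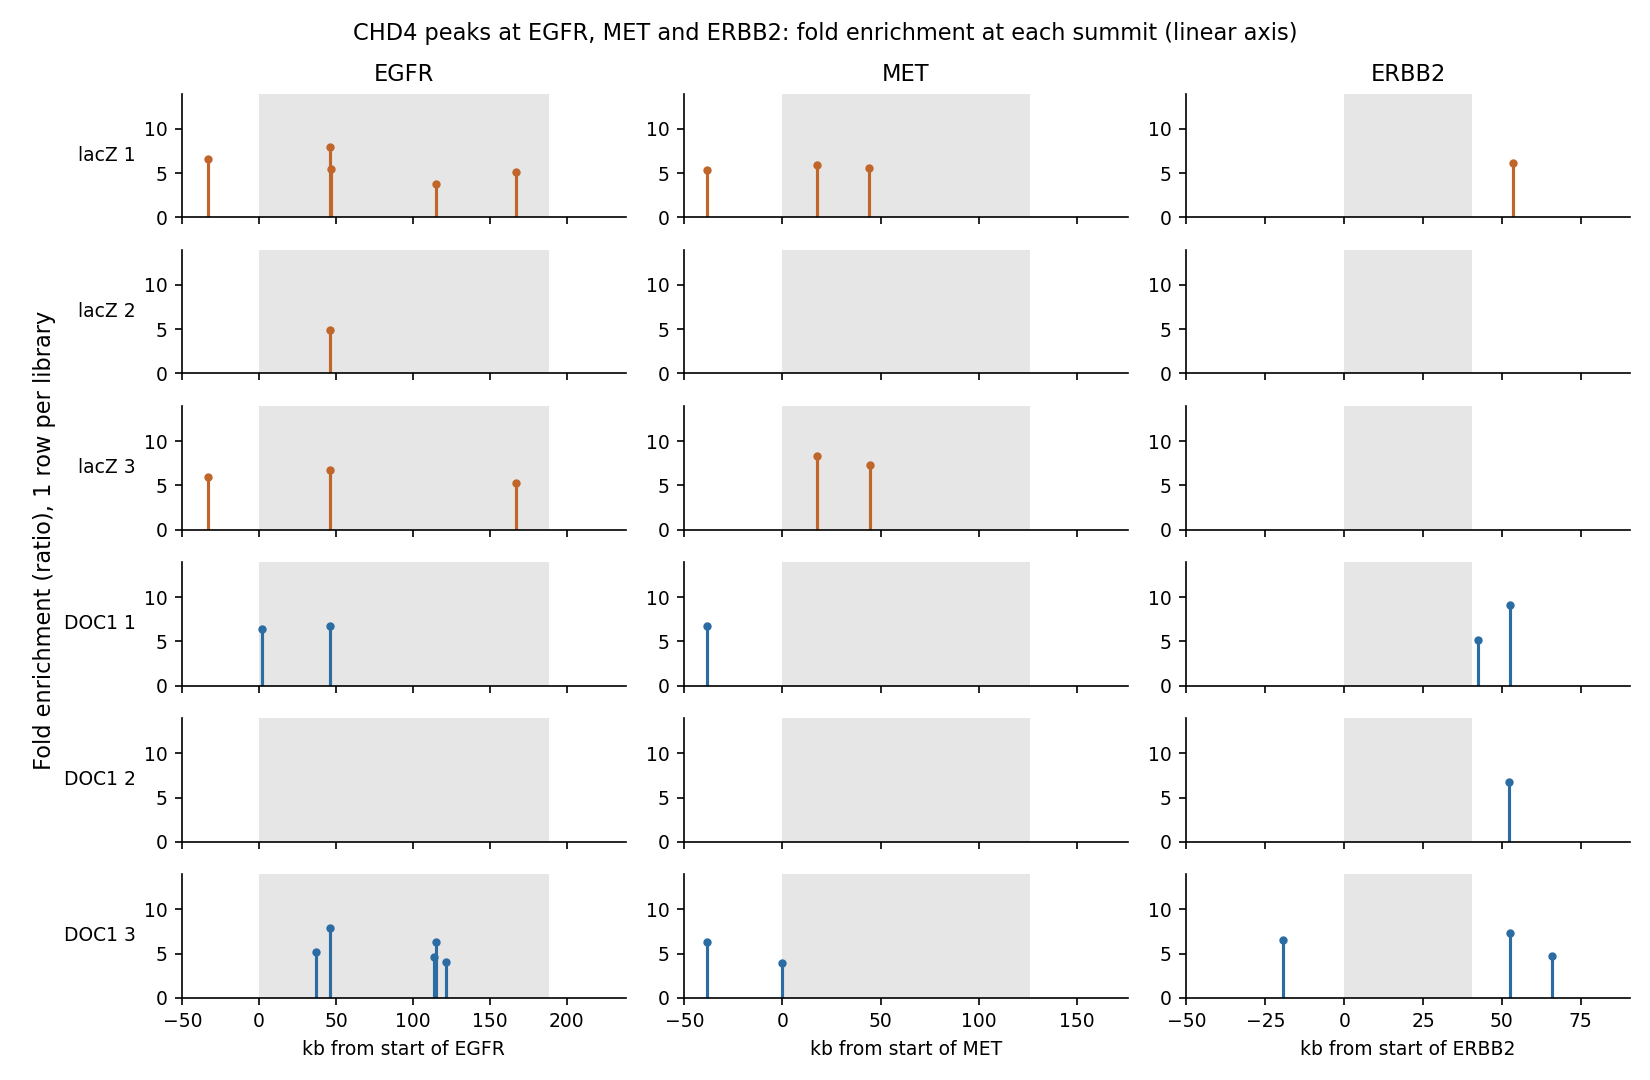
Position and height of each CHD4 peak at EGFR, MET and ERBB2. Each row is 1 library (lacZ in orange, DOC1 in blue), the x axis is the distance of the summit from the annotated start in kb, the y axis is the fold enrichment as deposited (ratio, linear) and grey marks the gene. At EGFR 5 libraries share a summit near 46 kb, and beyond the end of ERBB2 the 3 DOC1 libraries have summits from 52.37 to 52.58 kb.

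EGFR had 1 recurrent CHD4 region. It lay inside the gene, 46.0 to 47.1 kb past the outermost start (chromosome 7, 55132722 to 55133783). The strongest peak had a fold of 8.0, 4.88 and 6.76 in lacZ libraries 1 to 3 and of 6.75 and 7.93 in DOC1 1 and DOC1 3, and DOC1 2 had none. The groups overlapped. The ranks ran from the 16.6th percentile in lacZ 2 to the 93.7th in DOC1 3, and the summits held 60, 23, 26, 20 and 60 reads in the order just given. The 5 strongest summits lay within 127 bp of each other, below the median spread of 155.5 bp. lacZ 1 had another, separate peak 631 bp further in, with a fold of 5.41, under which the wide peak of DOC1 3 also reached. The same 5 libraries kept the region in lists of equal length. Exon and intron borders of the hg19 build were not used here, so the position within the gene is given by distance only.

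The other 7 regions at EGFR were found in 1 or 2 libraries. DOC1 3 alone had 3 of them, at 36.7, 114.0 and 121.8 kb past the start, with folds of 5.17, 4.58 and 4.01. A region at 114.9 kb was found in lacZ 1 and DOC1 3, with summits 312 bp apart. Nearest to the start was a peak of DOC1 1 alone, 1.7 kb into the gene (55088341 to 55088572), with a fold of 6.41 and 14 reads at its summit. No library had a peak over the start itself.

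At MET no CHD4 region was found in more than 3 of the 6 libraries. The highest fold was 8.27 in lacZ 3, 17.4 kb into the gene (chromosome 7, 116329667 to 116330004). lacZ 1 had a peak there with a fold of 5.90 and its summit 33 bp away, and the other 4 libraries had none. A region 44.4 kb into the gene (116356702 to 116357093) was likewise found in lacZ 1 and lacZ 3, with folds of 5.56 and 7.29. Only upstream, 38.6 kb before the start on the side of CAV1, the gene of the caveolar coat protein caveolin, did both groups have peaks (116273654 to 116274026). The folds were 5.35 in lacZ 1, 6.73 in DOC1 1 and 6.34 in DOC1 3, with summits within 80 bp. A peak of DOC1 3 alone ended 231 bp before the start of MET (116311879 to 116312228), with a fold of 3.91 at the 15.0th percentile of its list. lacZ 2 and DOC1 2, the libraries with the shortest lists, had no peak at MET.

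At ERBB2 the gene itself held no CHD4 peak in any of the 6 libraries. The recurrent region lay 11.8 kb beyond its 3′ end (chromosome 17, 37896684 to 37897394), on the side where RefSeq's gene order (GRCh38) places MIEN1 and then GRB7, the gene of an adaptor protein that binds ERBB2. Whether this region lies inside either neighbour was not looked up, for lack of hg19 gene positions. All 3 DOC1 libraries had a peak in the region and none of the lacZ libraries did. The folds were 9.06, 6.74 and 7.34 in DOC1 libraries 1 to 3, at the 94.9th, 89.3rd and 90.5th percentile of their lists, with 17, 15 and 33 reads at the summits. All 3 ranked it high, DOC1 2 included, and all 3 kept it in lists of equal length. Of the 18808 regions of the series 0.978% had this pattern, and 1 of the 34 at the receptor loci did, a count of 1 from which nothing about the loci can be read. Without DOC1 2, which loosens the rule, the count was 2, and the share of the series under that rule was not worked out.

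The absence of lacZ peaks at this place depended on how peaks were joined. lacZ 1 had a peak of its own (37897809 to 37898186) that began 415 bp beyond the end of the DOC1 region, with a fold of 6.20 at the 63.7th percentile and 46 reads at its summit. When peaks within 500 bp were merged, both became 1 region. The receptor loci then held no region that joined peaks of all 3 DOC1 libraries without a lacZ peak. The summits of DOC1 1 and DOC1 3 lay 6 bp apart and that of DOC1 2 was 201 bp from the nearer. With summits widened by 100 bp in place of whole peaks, the DOC1 summits therefore did not all meet. The other 3 regions at ERBB2 were single peaks of DOC1 1 or DOC1 3, with folds from 4.77 to 6.53.

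The number of peaks per library did not separate cells with and without DOC1 at EGFR, EPHA2 or MET. EGFR had 5, 1 and 3 peaks in lacZ libraries 1 to 3 and 2, 0 and 5 in DOC1 libraries 1 to 3. EPHA2 had 10, 8 and 11 against 11, 3 and 13, and MET had 3, 0 and 2 against 1, 0 and 2, in the same order. In each the groups overlapped. The means were 3.00 ± 2.00 and 2.33 ± 2.52 peaks at EGFR, 9.67 ± 1.53 and 9.0 ± 5.29 at EPHA2, and 1.67 ± 1.53 and 1.00 ± 1.00 at MET, for lacZ and DOC1 (SD, n = 3 each). Without DOC1 2 the order turned at EGFR and EPHA2, with DOC1 higher by 0.5 and 2.33 peaks. It turned at EGFR also without lacZ 1, to 0.33 peaks more with DOC1. At ERBB2 there were 1, 0 and 0 peaks without DOC1 and 2, 1 and 3 with it, 0.333 ± 0.577 against 2.00 ± 1.00 (SD, n = 3 each). The groups touched there at 1 peak.

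**Figure D3:**
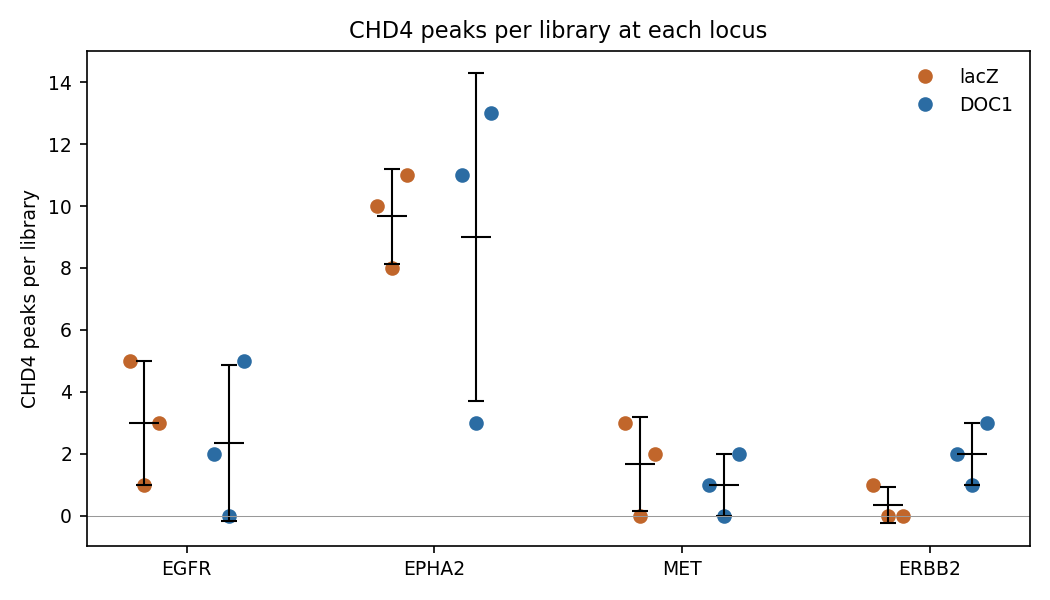
CHD4 peaks at each locus. Each point is 1 library, lacZ in orange and DOC1 in blue, the y axis is the number of peaks, and the black bars give the mean and SD of 3 libraries. The groups overlap at EGFR, EPHA2 and MET and meet at 1 peak at ERBB2, where the lacZ points are at 1, 0 and 0.

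List length enters these counts, so they were also expressed per 1000 peaks of each list. EPHA2 then took 1.42, 2.85 and 2.33 per 1000 peaks in lacZ libraries 1 to 3 and 1.40, 0.870 and 1.18 in DOC1 libraries 1 to 3. Each lacZ library lay above each DOC1 library, with lacZ 1 and DOC1 1 nearly equal. Among the 249 windows of this length with 20 peaks or more over the 6 lists, 28.5% showed the same order and 1.2% the opposite one, so it is common in dense windows. EGFR took 0.711, 0.356 and 0.635 per 1000 peaks without DOC1 and 0.255, 0 and 0.453 with it, and MET took 0.427, 0 and 0.423 against 0.128, 0 and 0.181, so the groups overlapped at both. ERBB2 took 0.142, 0 and 0 per 1000 peaks without DOC1 and 0.255, 0.290 and 0.272 with it. Of the windows of the ERBB2 length with any peak, 2.75% had every DOC1 library above every lacZ library and 7.12% the opposite. Either order needs a peak in all 3 libraries of a group, so windows with fewer peaks cannot show it. The shares are thus not those of windows with as many peaks as ERBB2, which held 7. The 4 loci together, of whose peaks EPHA2 held 56 of 87, took 2.70, 3.20 and 3.39 per 1000 peaks without DOC1 and 2.04, 1.16 and 2.08 with it. Each lacZ library again lay above each DOC1 library, unlike in the plain numbers of peaks, which were 19, 9 and 16 without DOC1 and 16, 4 and 23 with it. How often sets of 4 such windows show this order was not worked out, so it is not read as a trait of the receptor loci.

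Regions shared by both groups made up 12 of the 34, and EPHA2 held 9 of these 12. In the series 27.8% of regions were found in both groups. No region of the receptor loci had peaks in all 3 lacZ libraries and in none with DOC1, a pattern of 1.18% of all regions. Leaving out lacZ 2 gave 5 such regions and leaving out DOC1 3 gave 1, both under a looser rule than that of the 1.18%. Without lacZ 2 the rule also takes in regions of lacZ 1 and lacZ 3 alone, 2.4% of the series. The share without DOC1 3 was not worked out. The region 16.4 kb into EPHA2 missed the pattern of all 3 lacZ libraries and no DOC1 library by the peak of DOC1 3. A set of 5 regions was found in lacZ 1 and lacZ 3 and no other library, and was singled out after its values were seen. These were both regions in MET described above, a region 33.5 kb upstream of EGFR, one 167.3 kb into EGFR, and one 47.2 kb beyond the 3′ end of EPHA2. Their folds ran from 4.17 to 8.27. Of all regions 2.4% were found in lacZ 1 and lacZ 3 alone, and 4.49% in 2 or more lacZ libraries with none of the DOC1 libraries. In the other direction, a region 8.6 kb upstream of EPHA2 (16490974 to 16491366) was found in DOC1 1 and DOC1 3 and no lacZ library, with folds of 7.06 and 3.46. With the region beyond ERBB2 this made 2 regions found in 2 or more DOC1 libraries and no lacZ library, a pattern of 11.5% of all regions.

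**Figure D4:**
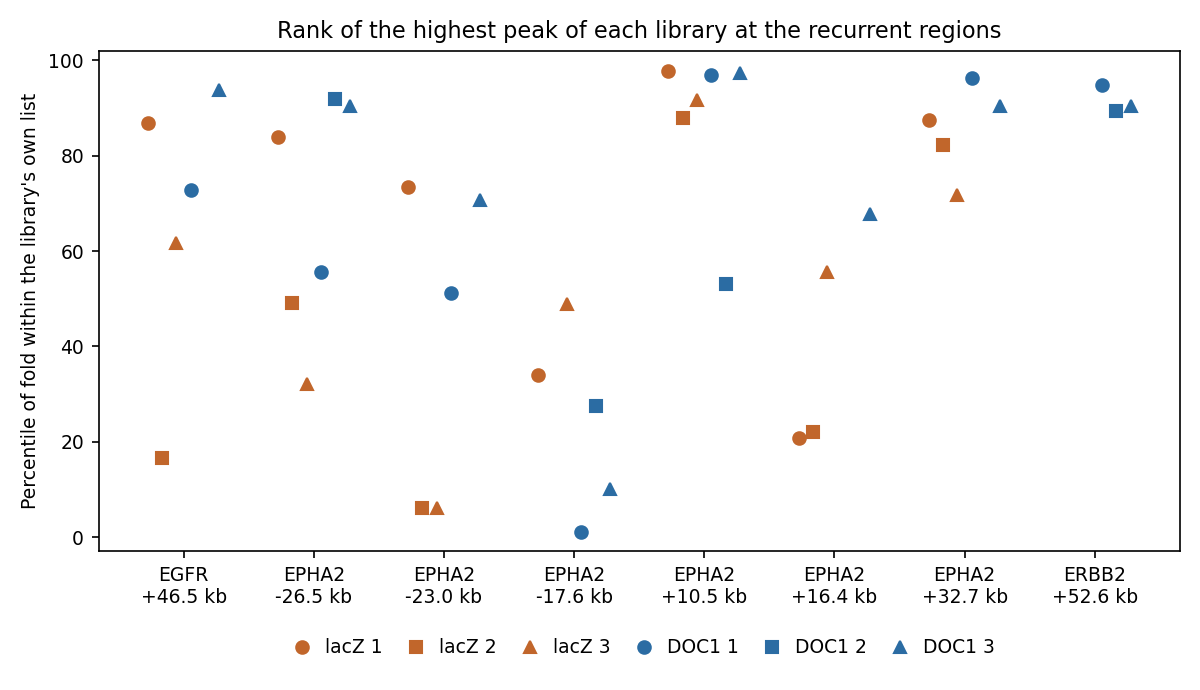
Rank of the recurrent regions. For each region found in 4 or more libraries, and for the region beyond ERBB2, the y axis gives the percentile of the highest fold within the list of each library; colours mark the groups, symbols the library number, and a missing symbol means no peak. Regions are named on the x axis by gene and distance of their middle from the start in kb. At 10.5 kb into EPHA2, 5 libraries lie at or above the 87.8th percentile and DOC1 2 at the 53.1st.

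Recurrent regions made up 7 of the 34, counting those in 4 libraries or more, and 13.9% of all regions were found as often. EPHA2 held 6 of the 7 and EGFR the other one. Regions found in 1 library alone made up 15 of the 34 (44.1%), against 56.2% of the series. DOC1 3 alone accounted for 8 of these 15. In the series 21.3% of regions were found in DOC1 3 alone, a share close to the 23.5% at the receptor loci.

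**Figure D5:**
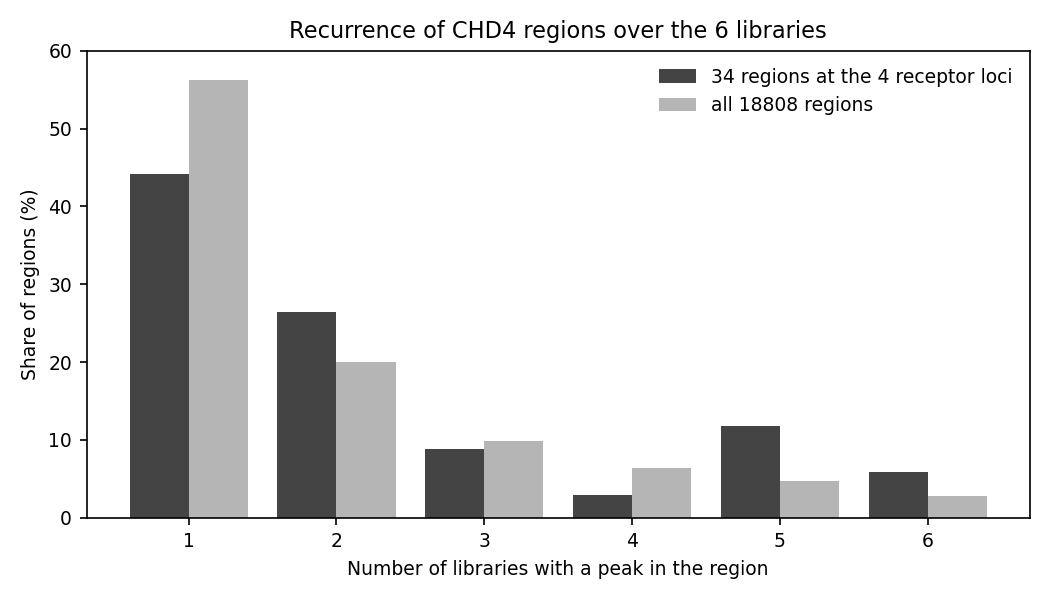
Number of libraries per region. Dark bars give the share of the 34 regions at the receptor loci, light bars that of all 18808 regions, in percent, by the number of libraries (1 to 6) with a peak in the region. Regions in 1 library alone are the most frequent class in both, at 44.1% and 56.2%.

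The count depends on where the windows end. With flanks of 100 kb in place of 50 kb the regions numbered 45, and ERBB2 had a mean of 1.00 peaks per library without DOC1 and 4.33 with it. Just outside the EPHA2 window, 0.650 kb from its upstream edge, lay a peak of DOC1 3 with a fold of 3.35, while the nearest region inside that edge was a peak of DOC1 1 with a fold of 4.57, 10.5 kb from it. Just outside the ERBB2 window, 0.541 kb from its upstream edge, a region (37793173 to 37793852) was found in lacZ 3, DOC1 1 and DOC1 3 with folds from 3.69 to 6.65. The nearest region inside was the DOC1 3 peak 30.3 kb from that edge, with a fold of 6.53. At EGFR the nearest regions outside were 194.5 and 289.4 kb away, and at MET they were single peaks of DOC1 3 and DOC1 1, 39.1 and 10.99 kb away.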

How the data were processed

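CHD4 peak lists of 6 libraries of SCC9 cells were used, 3 per group, grouped and numbered by title. The authors used Trimmomatic 0.33, BWA 0.7.12-r1039, SAMtools 1.2 and MACS2 2.1.1.20160309 on hg19, per the submitters' processing notes. Sources used here do not name command lines, filters or the control. The lists deposited, 1 per library, hold a fold enrichment (ratio), the −log10 of the p-value and q-value, a score (10 times the −log10 q, cut to a whole number) and the summit of each peak.

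Peaks overlapping by 1 bp or more were merged into regions. Whole reads at each summit were solved from fold and p-value with 1 scaling factor per library, matching within 0.002 background reads for 87 of 87 peaks described here. In simulated lists of 1500 peaks per library at least 99.9% of read numbers were recovered. These read numbers are before that scaling, and the backgrounds after it. Libraries were amplified for 18 PCR cycles per the labels' protocols, with no molecular identifiers named, so reads are not independent molecules.

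The 4 genes and their windows were chosen with earlier results of these data known. Regions were described singly if they lay within 1 kb of a gene start, were found in 4 or more libraries or in all libraries of one group and none of the other, or held the highest fold of a locus. A few other regions, found in fewer libraries, were also named outside this rule. Other receptor genes were not analysed here, for lack of hg19 gene positions, and no genes of like pattern were sought. Gene order and promoters came from RefSeq (GRCh38.p14), with all 4 genes matched. No test was run. Alternatives were a stricter q-value, summits, merging within 500 bp, lists of equal length, flanks of 20 and 100 kb and leaving out each library. Software was scipy 1.17.1, numpy 2.4.6, matplotlib 3.10.9 and pandas 2.3.3 under Python 3.11.15.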

Additional observations from a re-analysis of the deposited data

How the results depend on the processing

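Of 96 alternative values, 80 stayed within the spread between libraries or within 1.5 times the count. This limit is loose at EGFR, EPHA2 and MET, where the spread (2.27, 3.89 and 1.29 peaks) exceeded the difference between the groups. The 80 is therefore no measure of steadiness there. The difference in peaks per library (DOC1 minus lacZ) was -0.67 at EGFR, EPHA2 and MET and 1.67 at ERBB2. With 1 library left out it ranged from -2 to 0.5 at EGFR, from -2.67 to 2.33 at EPHA2, from -1.5 to 0 at MET and from 1.17 to 2.17 at ERBB2. With flanks of 100 kb it turned to 0.33 at EPHA2 and was 3.33 at ERBB2, where more sequence is counted. The 34 regions became 17 in lists of equal length, where peaks are cut, and between 27 and 34 with a library left out. The 2 regions of all 6 libraries became 1 with summits, in lists of equal length and with flanks of 20 kb. With summits the region inside EPHA2 dropped out, since its summits fell into separate places, and the upstream region stayed. In lists of equal length and with flanks of 20 kb the region inside EPHA2 stayed and the upstream one dropped out. With a library left out, which loosens the rule, the count was 2 to 5, and the 5 came without DOC1 2. No region of every lacZ and no DOC1 library became 1 with summits, inside EPHA2, and 0 to 5 with a library left out, the 5 without lacZ 2. The 1 with summits was the second summit cluster of the region inside EPHA2 found in all 6 libraries. The wide peaks of DOC1 1 and DOC1 3 cover that place too. The 1 region of every DOC1 and no lacZ library became 0 with summits and with merging within 500 bp, and 1 to 2 with a library left out, the 2 without DOC1 2. No paired analysis was possible because no result comes from a test.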
